A study of Mus musculus with 40 samples.

Results

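Whole mammary tissue came from control mice and mice that lack the histone methyltransferase EZH2, its relative EZH1, or EZH2 and 1 Ezh1 allele. A set of 10 genes of the neutrophil and acute phase response was followed in it. These genes, of 22552 in the authors' table, were chosen by symbol: S100a8, S100a9, Saa3, Retnlg, Lcn2, Cxcl1, Il1b, Il1r2, Csf3r and Ifitm6. RNA-seq of poly(A) RNA was made from 31 libraries in 12 groups, and the table gives 1 FPKM value per gene and group, which is a count of fragments scaled by transcript length and by the number of mapped fragments. Each value pools the 2 or 3 libraries of its group, so no difference described here has a replicate check, an error or a p-value, and the order of neighbouring levels could not be set against a spread.

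All mice were of an outbred background. Controls had the genotype MMTV-Cre. The Ezh2 KO mice were Ezh2f/f;control and carry floxed Ezh2 with the transgene of the controls, line A. The promoter of mouse mammary tumour virus drives Cre in it, and the labels give the mammary gland as the site of the deletion. The Ezh1 KO mice were E1-/-, a knockout that is not restricted to the mammary gland. The remaining genotype, E1+/-;E2f/f;control, lacks 1 Ezh1 allele as well as mammary Ezh2 and is called Ezh1 het Ezh2 KO. Control and Ezh2 KO mice were sampled as virgins of 12 weeks with and without prolactin (2 libraries per group), and all 4 genotypes were sampled untreated on days 13 and 18 of pregnancy (p13 and p18), with 3 libraries per group except 2 for Ezh1 KO at p18. For the prolactin groups the labels describe virgins in oestrus under avertin anaesthesia, from which the left 4th gland was taken after its lymph node was removed. Prolactin at 5 µg per g of body weight was given 2 hours after recovery, and the right 4th gland was taken 2 hours after the injection. The treated gland thus differs from the untreated one by hormone, by the side of the body, and by 4 hours that follow anaesthesia and surgery, and these cannot be told apart here.

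Ezh1 was at 1.06 FPKM in Ezh1 KO at p13 and 0.627 FPKM at p18, against 14.7 and 7.37 FPKM in control. Ezh2 was at 5.55 and 4.64 FPKM in untreated and treated Ezh2 KO virgins against 4.98 and 6.74 FPKM in control, at 13.7 against 12.9 FPKM at p13, and at 6.41 against 10.0 FPKM at p18. A value for the whole gene, in tissue where not all cells carry the deletion, does not check the loss of EZH2, and the groups are called by their labels.

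Neutrophils are short-lived granulocytes that leave the blood within hours of an injury, through endothelium that displays selectins and ICAM-1. S100a8 and S100a9 encode the subunits of calprotectin, a metal-binding protein that fills the neutrophil cytosol. Retnlg encodes a resistin-like peptide of granulocytes, Csf3r the receptor of the granulocyte growth factor G-CSF, and Il1r2 a decoy receptor that takes up IL-1 without signalling. Il1b encodes the cytokine IL-1 beta, and Cxcl1 a chemokine that draws neutrophils through CXCR2. Saa3 is a serum amyloid A made outside the liver, and Lcn2 encodes lipocalin 2, which binds bacterial siderophores and comes from neutrophils and also from epithelium and fat. Ifitm6 belongs to a family of interferon-induced membrane proteins. In tissue RNA, fewer cells of a type and less RNA per cell cannot be told apart.

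The stretches just before the transcription starts of 4 members are shown because these members had among the larger differences between groups, and because motifs of inflammatory transcription factors lie in them. Each is the 150 bases before the start, 5′ to 3′ on the gene's strand, from RefSeq windows of build GRCm38.p6. Capitals mark a match to the NF-kB consensus in Cxcl1 and to the C/EBP-type motif TTNNGNAA in the others, on either strand. The stretches lie at chr5:90891095-90891244 (+) for Cxcl1, chr7:46715677-46715826 (-) for Saa3, chr3:90668921-90669070 (+) for S100a8 and chr3:90695722-90695871 (-) for S100a9.
Cxcl1: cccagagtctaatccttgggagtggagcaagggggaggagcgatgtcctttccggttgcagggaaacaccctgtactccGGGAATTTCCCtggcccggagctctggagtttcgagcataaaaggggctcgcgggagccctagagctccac
Saa3: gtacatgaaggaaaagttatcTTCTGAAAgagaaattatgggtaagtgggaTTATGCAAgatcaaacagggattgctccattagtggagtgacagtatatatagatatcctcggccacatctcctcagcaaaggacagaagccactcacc
S100a8: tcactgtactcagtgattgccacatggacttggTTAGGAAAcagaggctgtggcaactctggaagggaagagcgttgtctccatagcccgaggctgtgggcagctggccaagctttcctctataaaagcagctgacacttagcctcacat
S100a9: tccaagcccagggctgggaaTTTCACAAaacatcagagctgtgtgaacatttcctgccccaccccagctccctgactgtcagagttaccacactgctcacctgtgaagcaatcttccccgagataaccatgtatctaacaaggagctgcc
Windows of 300 bases, 250 before and 50 after the start, were found for all 10 members and searched on both strands. The NF-kB consensus occurred in 2 members, Cxcl1 and Csf3r, against 8.46% of 32851 windows. In Cxcl1 the capitals cover a pair of overlapping matches, 71 bases before the start on the gene's strand and 70 bases before it on the other. TTNNGNAA occurred in 7 members (S100a8, S100a9, Saa3, Retnlg, Lcn2, Il1b and Ifitm6) against 40.7% of the windows, and Saa3 held 4 matches, of which those at 129 and 99 bases before the start are shown. No match to one motif overlapped a match to the other in these members. In the 150 bases before the start, Retnlg, Lcn2 and Il1r2 held no match to either motif. Retnlg had larger differences between treated and untreated virgin glands than Cxcl1, so the 4 stretches were chosen in part for holding a match. A match is a description of the letters and not a bound site.

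The highest levels of the calprotectin genes were in the prolactin-treated virgin glands. S100a8 was at 16.4 FPKM in untreated and 101 FPKM in treated control virgins, and at 20.9 and 186 FPKM in Ezh2 KO virgins. S100a9 was at 3.46 and 90.6 FPKM in untreated and treated controls, and at 10.3 and 182 FPKM in Ezh2 KO. On the plain FPKM scale these were differences of 6.18-fold and 8.92-fold for S100a8, and of 26.2-fold and 17.6-fold for S100a9. In the 8 pregnancy groups S100a8 lay between 2.29 and 21.0 FPKM and S100a9 between 1.46 and 11.3 FPKM, all below the treated virgin glands.

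The largest fold between treated and untreated glands was that of Saa3 in controls and that of Retnlg in Ezh2 KO. Retnlg was at 1.83 FPKM in untreated and 27.9 FPKM in treated control virgins (15.3-fold), and at 1.18 and 50.8 FPKM in Ezh2 KO virgins (43.1-fold). Saa3 was at 1.38 and 46.8 FPKM in controls (34.0-fold) and at 5.55 and 34.6 FPKM in Ezh2 KO (6.23-fold). Among pregnant glands Retnlg stayed between 0.324 and 2.18 FPKM, while Saa3 ranged from 0.946 FPKM in Ezh1 KO at p13 to 13.0 FPKM in Ezh1 het Ezh2 KO at p18.

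The signalling members followed at far lower levels. Cxcl1 was at 0.996 and 5.82 FPKM in untreated and treated control virgins and at 0.886 and 8.88 FPKM in Ezh2 KO virgins. Il1b was at 0.302 and 2.37 FPKM in controls and at 0.805 and 4.16 FPKM in Ezh2 KO. For each of S100a8, S100a9, Saa3, Retnlg, Cxcl1 and Il1b, both treated groups lay above all 10 other groups, by a factor that ranged from 1.68 for Il1b to 12.8 for Retnlg between the lower treated group and the highest of the others.

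**Figure D1:**
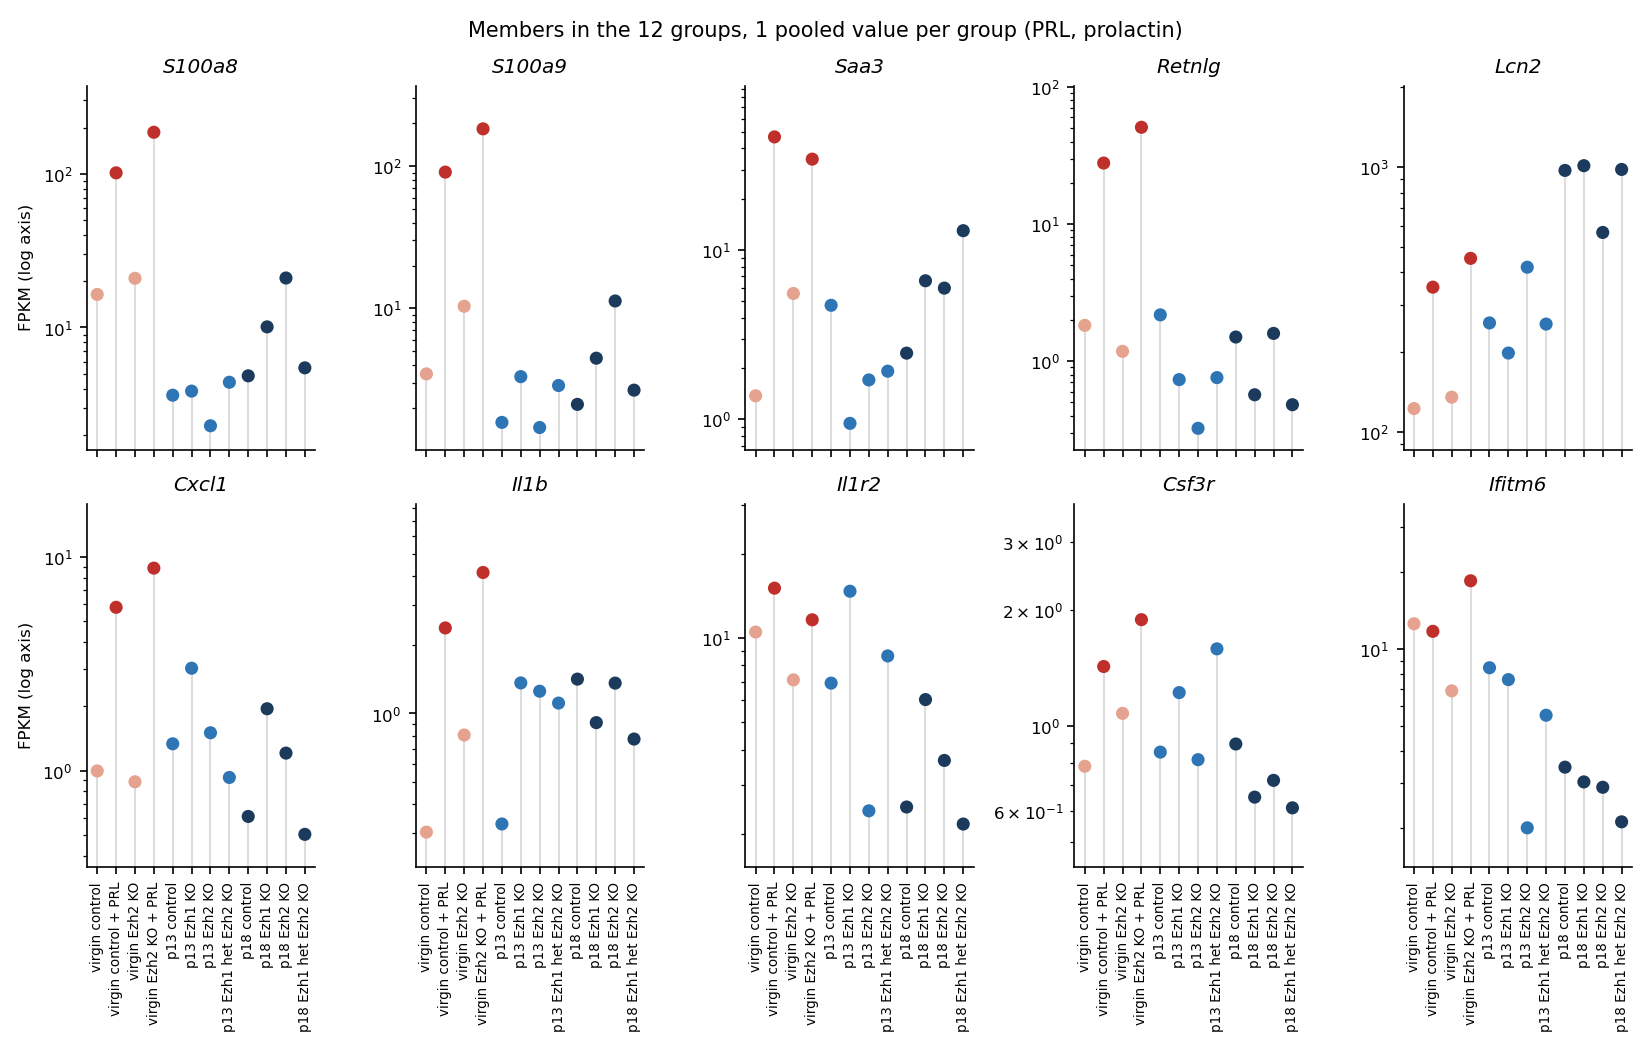
FPKM of each member on a log axis (vertical) in the 12 groups (horizontal), 1 pooled value per group with no error, coloured by untreated virgin (pale red), prolactin-treated virgin (red), p13 (blue) and p18 (dark blue). S100a8, S100a9, Saa3, Retnlg, Cxcl1 and Il1b peak in the 2 treated virgin groups, Lcn2 peaks at p18 at up to 1011 FPKM, and Il1r2, Csf3r and Ifitm6 do not separate the treated glands from the rest.

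Lcn2 was the most abundant member in every group and differed less between treated and untreated glands: 122 and 351 FPKM in untreated and treated control virgins, and 135 and 451 FPKM in Ezh2 KO virgins. The receptor genes differed by less than the fold used here in both genotypes. Il1r2 was at 10.5 and 15.1 FPKM in controls and at 7.10 and 11.6 FPKM in Ezh2 KO, and Csf3r was at 0.785 and 1.43 FPKM and at 1.08 and 1.89 FPKM. Ifitm6 was alike in untreated and treated controls, at 12.5 and 11.7 FPKM, but differed in Ezh2 KO, at 6.85 and 18.5 FPKM.

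To count members, each difference was taken on the log2(FPKM + 1) scale and called higher or lower at 1 or more in size, a scale that understates the fold of low genes. In control virgins 7 of 10 members were higher in treated glands and 0 were lower, against 4.76% of the 14273 genes with at least 1 FPKM in any group that were higher and 1.72% that were lower. In Ezh2 KO virgins 8 of 10 were higher and 0 lower, against 2.75% and 4.08% of all genes. The median difference of the members was 1.64 in controls and 2.06 in Ezh2 KO, and that of all genes was 0 in both. The same 7 members were higher in both genotypes, as were 256 of the 14273 genes (1.79%). These 7 were S100a8, S100a9, Saa3, Retnlg, Lcn2, Cxcl1 and Il1b.

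The treated-minus-untreated difference itself varied between genotypes for 3 members. Saa3 differed by 4.33 in controls and 2.44 in Ezh2 KO, where its untreated level was already 4.03-fold that of controls. Retnlg differed by 3.35 and 4.57, and Ifitm6 by -0.09 and 1.31. Across all genes 6.19% had 2 responses at least 1 apart. With 1 value per group, this difference between genotypes was not tested.

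**Figure D2:**
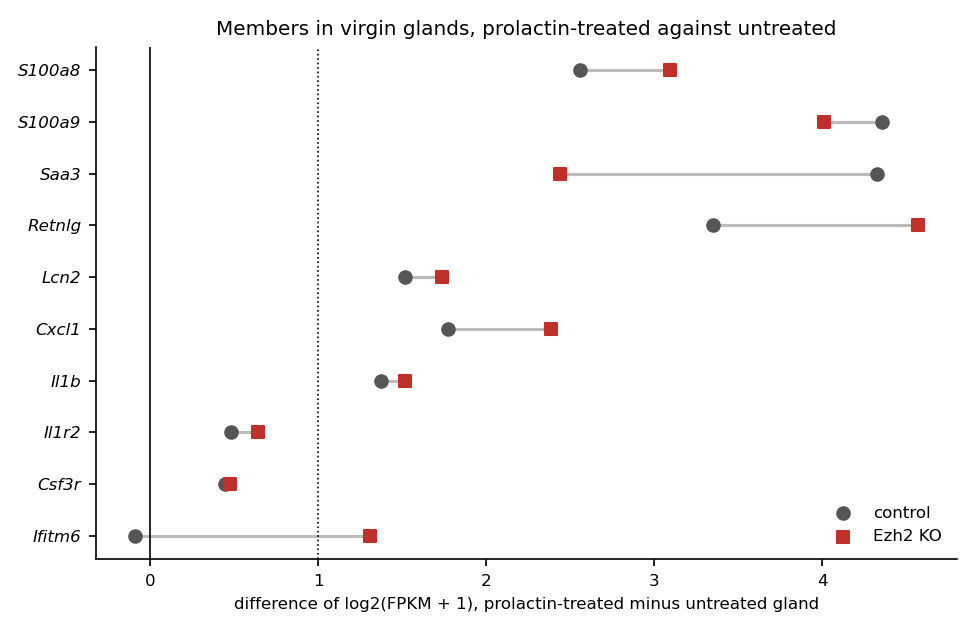
Difference of log2(FPKM + 1), treated minus untreated virgin gland (horizontal), for each member (vertical) in control (grey circles) and Ezh2 KO (red squares), with the dotted line at a difference of 1, the threshold for a call. S100a9, Saa3 and Retnlg reach over 4 in 1 genotype or both, Il1r2 and Csf3r stay below 1 in both, and Ifitm6 passes 1 only among the Ezh2 KO points, at 1.31.

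Other neutrophil transcripts were split. Of 15 granule genes, 5 were higher and 0 lower in treated control glands, and 3 and 0 in treated Ezh2 KO glands. Pglyrp1 was among the 5, at 2.66 and 13.0 FPKM in controls, but was at 9.69 and 5.41 FPKM in Ezh2 KO. Mmp9 was lower in both, short of the fold, at 6.79 and 2.98 FPKM in controls and at 5.09 and 3.20 FPKM in Ezh2 KO. Mmp8, the neutrophil collagenase, was at 0.0307 and 4.46 FPKM in controls and at 0.0411 and 7.34 FPKM in Ezh2 KO, and Ngp, a granule protein of maturing neutrophils, was at 0.0847 and 4.19 FPKM and at 1.16 and 6.70 FPKM. The azurophil granule genes of bone marrow precursors were not among the higher genes: Mpo stayed at or below 0.225 FPKM in all 12 groups and Elane between 0.156 and 1.02 FPKM. Prtn3, another of them, had higher levels, at 14.6 and 11.5 FPKM in controls and at 8.87 and 9.01 FPKM in Ezh2 KO. Of 16 surface and signalling genes, 7 were higher and 0 lower in controls, and 6 were higher and 2 lower in Ezh2 KO. Clec4d and Clec4e, lectin receptors of myeloid cells, were in the higher set both times: Clec4d was at 0.159 and 4.85 FPKM in controls and at 0.257 and 4.16 FPKM in Ezh2 KO. Cxcr2, the receptor of CXCL1, was at 0.556 and 2.36 FPKM in controls and at 1.61 and 3.03 FPKM in Ezh2 KO, which falls short of the fold in the latter. Of 18 other neutrophil-rich transcripts, 2 were higher in controls and 3 in Ezh2 KO, with 0 lower. Hp was among the 3 and is counted again in the acute phase list below. Plaur, the urokinase receptor, was higher in both, at 4.43 and 28.7 FPKM and at 5.49 and 16.3 FPKM.

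Cytokine and vessel wall genes that passed the fold were higher in the treated glands. Of 16 chemokine and growth factor genes, 6 were higher in treated control glands and 2 in treated Ezh2 KO glands, with 0 lower in each and medians of 0.51 and 0.02. Both sets held Il6, at 0.0884 and 4.88 FPKM in controls and 0.105 and 7.21 FPKM in Ezh2 KO, and Csf3, which encodes G-CSF, at 0.259 and 3.29 FPKM and at 0.158 and 9.36 FPKM. Ccl2, a monocyte chemokine, was at 5.36 and 18.3 FPKM in controls but at 5.65 and 5.09 FPKM in Ezh2 KO, and Ccl4 was at 0.271 and 2.195 FPKM but at 1.25 and 0.493 FPKM. Of 8 endothelial adhesion genes, 4 and 3 were higher and 0 lower. Sele (E-selectin) was at 0.412 and 6.03 FPKM in controls and at 0.300 and 24.7 FPKM in Ezh2 KO, and Selp (P-selectin) was at 2.06 and 20.1 FPKM and at 3.61 and 67.1 FPKM. Of 17 NF-kB and STAT3 response genes, 10 and 8 were higher and 0 lower. Socs3, a feedback inhibitor of cytokine signalling, was at 5.60 and 80.2 FPKM and at 6.17 and 58.8 FPKM.

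Within the IL-1 family, Il1r1 and Il1r2 differed from each other. The signalling receptor Il1r1 was at 10.6 and 33.6 FPKM in untreated and treated controls and at 11.3 and 29.0 FPKM in Ezh2 KO, past the fold in both, whereas the decoy receptor Il1r2 was not. Other receptor genes did not follow Il1r1. Il1rap, the shared accessory chain, was at 2.12 and 2.26 FPKM in controls and 2.57 and 2.64 FPKM in Ezh2 KO. Il18r1, a receptor chain for IL-18, passed the fold in controls, at 2.61 and 7.60 FPKM, but was at 3.87 and 3.67 FPKM in Ezh2 KO. Il1rn, the secreted receptor antagonist, was at 0.629 and 3.97 FPKM and at 1.07 and 3.37 FPKM. Il33, an alarmin of stromal cells, was lower in both, at 16.1 and 6.44 FPKM and at 10.3 and 3.12 FPKM. Of the 14 family genes, 3 were higher and 1 lower in controls, and 2 were higher and 1 lower in Ezh2 KO.

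The acute phase list as a whole differed far less than Saa3. Of its 24 genes, 4 were higher in treated controls (Ptx3, Serpina3g, Cd14 and Saa1) and 3 in treated Ezh2 KO (Cd14, Hp and Ptx3), with 0 lower in each. Hp, haptoglobin, was at 691 and 1175 FPKM in controls and at 629 and 1453 FPKM in Ezh2 KO. Few relatives of the members in the S100, resistin and Ifitm families passed the fold, and none of these did so upward in both genotypes. Of 13 other S100 genes 0 were higher in either genotype and S100a4 was lower in Ezh2 KO, at 138 and 57.3 FPKM, and Retnla, a resistin-like gene of macrophages, was at 1926 and 835 FPKM in controls and at 1272 and 989 FPKM in Ezh2 KO. Of the 8 resistin and Ifitm relatives, 1 was higher in each genotype. Ifitm1 was at 6.51 and 17.9 FPKM in controls but at 21.3 and 13.98 FPKM in Ezh2 KO, and Ifitm5 was at 0.961 and 1.06 FPKM in controls and at 0.762 and 2.54 FPKM in Ezh2 KO. Reads that fit more than 1 copy of such families could have been split between them.

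Glucocorticoid response genes moved with the members. Of 12, 7 were higher in treated controls and 9 in treated Ezh2 KO, with 0 lower. Fkbp5, a chaperone that is a standard readout of the glucocorticoid receptor, was at 11.8 and 158.4 FPKM in controls and at 11.2 and 158.1 FPKM in Ezh2 KO. Mt2, a metallothionein, was at 133 and 5677 FPKM and at 121 and 3609 FPKM. Their part in the members' differences was not tested.

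Lymphocyte markers, in contrast, moved in opposite directions in the 2 genotypes. All 10 were higher in treated control glands, with a summed level of 15.3 and 201 FPKM, and all 10 were lower in treated Ezh2 KO glands, at 251 and 5.13 FPKM. None of the 10 was listed at 0. The labels mention removal of the lymph node for the left, untreated gland and do not state it for the right one, and its part in these values was not tested. The B cell gene Cd79a was at 1.63 and 49.7 FPKM in controls and at 60.9 and 0.383 FPKM in Ezh2 KO. Selplg, which encodes an adhesion molecule that neutrophils share with lymphocytes, went the way of the lymphocyte markers, at 6.41 and 16.4 FPKM in controls and at 26.2 and 4.84 FPKM in Ezh2 KO. The 9 members without Lcn2 summed to 48.2 and 303 FPKM in controls and to 54.7 and 499 FPKM in Ezh2 KO, higher in the treated glands of both genotypes. The part of lymph node tissue in the members' sums was not tested. The 13 macrophage and monocyte markers summed to between 752 and 821 FPKM in the 4 virgin groups, but single markers differed. In treated controls 2 were higher and 1 lower, with a median of -0.16. In treated Ezh2 KO 0 were higher and 3 lower, with a median of -0.48. The near-level sums rest in part on Ly6c1, the most abundant of these markers in the virgin groups. It was higher in treated glands, at 222 and 251 FPKM in controls and at 205 and 319 FPKM in Ezh2 KO. C1qa was lower in both, at 176 and 143 FPKM and at 150 and 140 FPKM, and so was C1qc, at 133 and 105 FPKM and at 115 and 91.5 FPKM. C1qb was lower in controls only, at 152 and 136 FPKM against 116 and 120 FPKM in Ezh2 KO.

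**Figure D3:**
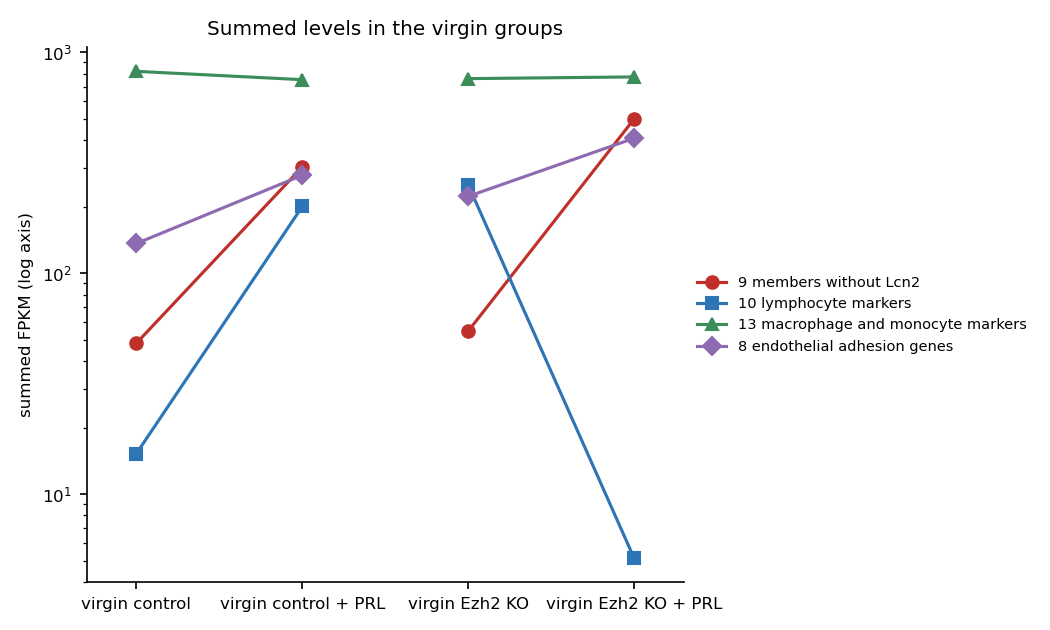
Summed FPKM on a log axis (vertical) in the 4 virgin groups (horizontal) for the 9 members without Lcn2 (red circles), 10 lymphocyte markers (blue squares), 13 macrophage and monocyte markers (green triangles) and 8 endothelial adhesion genes (purple diamonds), with lines joining untreated and treated glands of 1 genotype. The members sum to 48.2 and 303 FPKM in control and to 54.7 and 499 FPKM in Ezh2 KO, and the lymphocyte markers to 15.3 and 201 FPKM and to 251 and 5.13 FPKM.

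Between genotypes, few members differed in virgin glands. Without prolactin, S100a9 (10.3 against 3.46 FPKM) and Saa3 (5.55 against 1.38 FPKM) passed the fold upward in Ezh2 KO, 2 of 10 members against 3.35% of all genes, and 0 were lower against 0.911%. With prolactin, 1 member was higher in Ezh2 KO, S100a9 at a difference of 1.00 that sits on the threshold, against 0.764% of all genes, and 0 were lower against 2.71%. The untreated Ezh2 KO glands were those with the lymphocyte sum of 251 FPKM. Liver markers were also higher there, 7 of 10, with sums of 143 FPKM in Ezh2 KO and 68.6 FPKM in control, and 7 of 10 were lower in the treated Ezh2 KO glands, at 36.2 FPKM. Milk protein genes were higher in the untreated Ezh2 KO glands too, 8 of 15, at 1362 against 400 FPKM, and much of that gap was Glycam1, at 743 against 13.7 FPKM. In the treated glands Glycam1 was at 2.10 FPKM in Ezh2 KO and 864 FPKM in control, so it went the way of the lymphocyte markers. The part of these in the S100a9 and Saa3 values was not tested. With a pseudocount of 5, 0 members passed the fold in either comparison. The genotype and prolactin comparisons share these 4 groups.

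At p13 the members that passed the fold were lower in the knockouts, while others lay above control. S100a8 was at 3.63 FPKM in control, 3.86 FPKM in Ezh1 KO, 2.29 FPKM in Ezh2 KO and 4.40 FPKM when 1 Ezh1 allele was lost as well (Ezh1 het Ezh2 KO). Saa3 was at 4.72 FPKM in control and at 0.946, 1.71 and 1.93 FPKM in the same 3 knockouts, so that control stood above all of them. Retnlg followed suit, at 2.18 FPKM in control and 0.734, 0.324 and 0.760 FPKM in the knockouts. Ezh2 KO had the lowest Ifitm6 of any group, 1.99 FPKM against 8.44 FPKM in control, and an Il1r2 of 2.42 against 6.91 FPKM.

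Lcn2 went the other way in Ezh2 KO at p13, at 418 FPKM against 258 FPKM in control, 198 FPKM in Ezh1 KO and 255 FPKM in the compound genotype, short of the fold. S100a9 was at 1.58, 3.31, 1.46 and 2.87 FPKM in control, Ezh1 KO, Ezh2 KO and the compound genotype, and Il1b was at 0.328, 1.36, 1.25 and 1.11 FPKM, with control the lowest and the knockouts 3.39-fold to 4.16-fold above it on the plain scale. Ezh1 KO had the most Cxcl1 of the pregnant groups, 3.02 FPKM against 1.33 FPKM in control, and an Il1r2 of 14.7 FPKM against 6.91 FPKM, at differences of 0.78 and 0.99 that fall short of the fold. Csf3r, the receptor that marks mature granulocytes, stayed between 0.817 and 1.59 FPKM.

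In counts at p13, 4 of 10 members were lower in Ezh2 KO (Saa3, Retnlg, Il1r2 and Ifitm6) against 6.59% of all genes, and 0 were higher against 2.65%. In Ezh1 KO, Saa3 alone was lower, 1 of 10 against 2.28%, and 0 were higher against 2.10%. The direction of that count depended on the processing: with a pseudocount of 0.1, 4 were higher and 2 lower, and Il1r2 was called higher, beside 1 lower member, under each of the 3 other scalings, which set all groups to a common sum, a common upper quartile, or a common sum without milk protein genes. In Ezh1 het Ezh2 KO 0 were lower against 3.19% and 0 higher against 3.12%, and with a pseudocount of 0.1 the counts were 2 and 1. The 3 comparisons share the control group. Markers of other tissues moved in each of them. The 8 skeletal muscle markers summed to 9482 FPKM in control, 2297 FPKM in Ezh1 KO, 16.1 FPKM in Ezh2 KO and 20.95 FPKM in Ezh1 het Ezh2 KO, with 8 of 8 lower each time. In Ezh1 KO all 10 liver markers were higher, at 427 against 12.6 FPKM, and in Ezh1 het Ezh2 KO all 10 lymphocyte markers, at 63.5 against 11.1 FPKM. Milk protein genes were higher in all 3, 3 of 15 in Ezh1 KO, 12 of 15 in Ezh2 KO and 11 of 15 with 1 Ezh1 allele lost as well. The erythroid genes were lower, 4, 6 and 5 of 7 in the same order, with 1 higher in Ezh1 het Ezh2 KO. That 1 was Hba-a2, at 174 against 0.0620 FPKM in control, while Hba-a1 was at 0.340 against 1320 FPKM. In Ezh1 KO both were listed at 0, and Hbb-b2 was at 272 against 186 FPKM in control. How reads were shared between Hba-a1 and Hba-a2 is uncertain. In Ezh2 KO, 6 of 8 adipocyte and 6 of 13 macrophage and monocyte markers were lower, with macrophage sums of 902 and 531 FPKM. Their part in the members' differences was not tested. With a pseudocount of 5 in place of 1, 0 of the calls of members at p13 remained.

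At p18 the calprotectin genes were highest in Ezh2 KO. S100a8 was at 4.85 FPKM in control, 10.1 FPKM in Ezh1 KO, 21.0 FPKM in Ezh2 KO and 5.46 FPKM for Ezh1 het Ezh2 KO, and S100a9 was at 2.12, 4.47, 11.3 and 2.66 FPKM in that order. Ezh2 KO thus held 4.33-fold the S100a8 and 5.32-fold the S100a9 of control. Saa3 was above control in all 3 knockouts, at 2.46 FPKM in control and 6.60, 5.97 and 13.0 FPKM, with the highest value in Ezh1 het Ezh2 KO, where S100a8 was close to control. Lcn2 was at 970 FPKM in control, 1011 in Ezh1 KO and 978 in Ezh1 het Ezh2 KO but at 566 FPKM in Ezh2 KO, so the Ezh2 KO glands had the most S100a8 and the least Lcn2 of the 4.

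Of the remaining members, Il1r2 alone passed the fold at p18, in Ezh1 KO. Cxcl1 was at 0.610, 1.95, 1.21 and 0.503 FPKM in control, Ezh1 KO, Ezh2 KO and the compound genotype, and Il1r2 at 2.50, 6.04, 3.66 and 2.17 FPKM, so Ezh1 KO held the highest value of both, as it did at p13. The Cxcl1 of Ezh1 KO was 3.19-fold that of control on the plain scale. Retnlg was at 1.50 FPKM in control and 1.60 FPKM in Ezh2 KO and did not follow S100a8, and it was at 0.569 FPKM in Ezh1 KO and 0.482 FPKM in the compound genotype. Il1b lay between 0.772 and 1.42 FPKM, Csf3r between 0.612 and 0.897 FPKM, and Ifitm6 between 2.11 and 3.45 FPKM, with control at the top of each range.

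In counts at p18, 3 of 10 members were higher in Ezh2 KO (S100a8, S100a9 and Saa3, the last at a difference of 1.01) against 2.38% of all genes, and 0 were lower against 2.14%. In Ezh1 KO, Saa3 and Il1r2 were higher (2 of 10 against 1.21%, Il1r2 at 1.01) and 0 lower against 1.39%. In Ezh1 het Ezh2 KO, Saa3 alone was higher (1 of 10 against 1.23%) and 0 were lower against 1.55%. These comparisons again share 1 control group, and the count in Ezh1 KO became 0 with a pseudocount of 5 or without milk genes, 1 with a common sum, and 5 higher and 1 lower with a pseudocount of 0.1. Few genes of the neutrophil lists were higher with S100a8 in Ezh2 KO: of 16 surface genes 0 were higher or lower, and of 15 granule genes Pglyrp1 was higher (80.3 against 13.9 FPKM) and Ltf lower (63.1 against 133 FPKM). Of the 18 other neutrophil-rich transcripts 1 was higher, Hp at 347 against 49.3 FPKM, a gene that is also in the acute phase list. Of the 13 S100 relatives 3 were higher and 0 lower, with a median of 0.86. Blood and fat markers were higher as well: the 7 erythroid genes summed to 1451 FPKM in Ezh2 KO and 54.4 FPKM in control, 6 of 7 higher, and 6 of 8 adipocyte markers were higher. Milk protein genes were lower, 9 of 15, at 235342 against 459778 FPKM, and so were 7 of 8 skeletal muscle markers. Ezh1 KO, with the next highest S100a8, had an erythroid sum of 355 FPKM, and Ezh1 het Ezh2 KO one of 71.5 FPKM. In Ezh1 KO, 8 of 8 skeletal muscle and 4 of 7 erythroid genes were higher, and 4 of 15 milk protein genes were lower. In Ezh1 het Ezh2 KO, 6 of 10 lymphocyte markers were higher, at 48.1 against 12.0 FPKM, and 8 of 8 skeletal muscle markers were lower. At p13 the erythroid sum was highest in control, at 2070 FPKM, where S100a8 was at 3.63 FPKM. That order takes in Hba-a1 and Hba-a2, which were both listed at 0 in Ezh1 KO at p13. The part of blood, fat, milk, muscle and lymphocyte genes in the S100a8, S100a9, Saa3, Il1r2 and Lcn2 values at p18 was not tested.

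**Figure D4:**
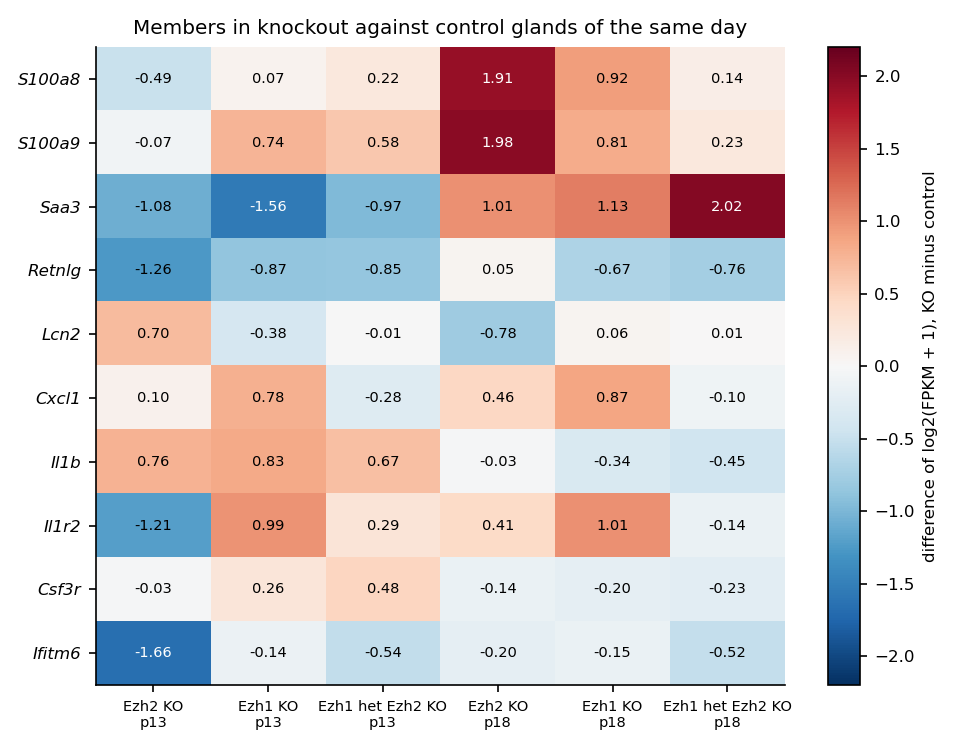
Difference of log2(FPKM + 1), knockout minus control of the same day, as colour and printed value for each member (rows) and comparison (columns), red higher and blue lower. Ifitm6 in Ezh2 KO at p13 is the lowest cell at -1.66, and S100a8, S100a9 and Saa3 turn from below 0 in Ezh2 KO at p13 to 1.91, 1.98 and 1.01 at p18.

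Across the control stages Lcn2 was the most abundant member and was higher at each step. It was at 122 FPKM in virgin, 258 in p13 and 970 in p18 glands, while the other 9 members summed to 48.2, 30.0 and 19.8 FPKM. Most of that fall lay in S100a8, Il1r2 and Ifitm6, whereas Il1b was highest at p18, at 0.302, 0.328 and 1.42 FPKM. From virgin to p13, Saa3 and Lcn2 were higher (2 of 10 against 9.12% of all genes) and S100a8 lower (1 of 10 against 2.76%), and under each of the other 3 scalings Lcn2 fell just short, at 0.89 to 0.97. From p13 to p18, Lcn2 was higher (1 of 10 against 3.55%) and Il1r2 and Ifitm6 lower (2 of 10 against 19.1%, with the median of all genes at -0.46). With a common upper quartile or without milk genes both lower calls ended and Il1b was called higher beside Lcn2, while the lower calls among all genes went from 2724 to 1427 and 1775. Lcn2 made up 47.5% of the summed level of the 10 members in treated Ezh2 KO virgins and 98.0% in control p18 glands. Ltf, lactoferrin, a milk and granule protein, was at 40.2, 15.5 and 133 FPKM over the same 3 stages, and the 15 milk protein genes summed to 400, 11149 and 459778 FPKM.

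The serum amyloid genes divided by setting. Saa1 was at most 2.62 FPKM in the virgin and p13 groups and at 24.6 FPKM in control, 67.4 FPKM in Ezh1 KO, 31.6 FPKM in Ezh2 KO and 42.0 FPKM for Ezh1 het Ezh2 KO at p18. Saa2 gave 24.8, 65.7, 23.4 and 39.2 FPKM in the same p18 groups, and since Saa1 and Saa2 are near-identical copies, how their reads were shared is uncertain. Saa3 reached 34.6 and 46.8 FPKM in the treated virgin glands, where Saa1 was at 1.42 and 1.20 FPKM, and no more than 13.0 FPKM at p18.

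**Figure D5:**
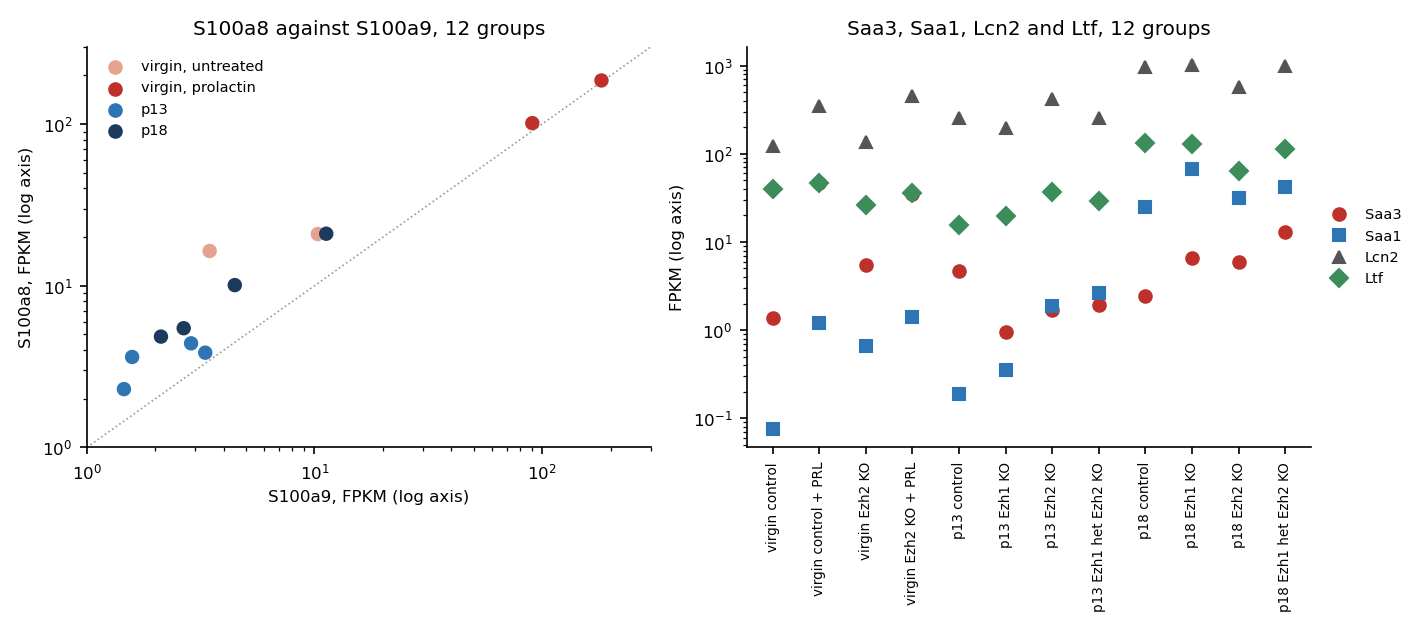
Left, S100a8 against S100a9 in FPKM on log axes, 1 point per group in the colours of its key, with the dotted line at equal levels; right, FPKM of Saa3, Saa1, Lcn2 and Ltf on a log axis in the 12 groups. All 12 groups lie above the line of equal levels, and Saa1 lies above Saa3 in the 4 p18 groups, at 24.6 to 67.4 FPKM.

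The members did not vary as a single unit. S100a8 exceeded S100a9 in all 12 groups, by 4.74-fold in untreated control virgins, 2.02-fold in untreated Ezh2 KO virgins, and 1.12-fold and 1.02-fold in the treated glands, and by 1.16-fold to 2.29-fold in pregnancy. FPKM is scaled by transcript length, which is why the 2 levels are set beside each other. With no error for either level, these ratios were not tested. Over the 10 groups without prolactin, the pair correlated on the log2(FPKM + 1) scale at r = 0.88, and Il1r2 and Ifitm6 at 0.84, whereas Lcn2 ran opposite to Ifitm6 (-0.84) and to Il1r2 (-0.75). S100a8 and Cxcl1 correlated at -0.19 over these 10 groups and at 0.73 over all 12, and S100a9 and Retnlg at 0.19 and 0.92. These are descriptions over pooled values that share controls and, for the virgin glands, mice.

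The 10 protein-coding genes most like the mean of the members, each scaled over the 12 groups, were Il6, Mmp8, Csf3, Sele, Gm6907, Setdb2, Socs3, Clca3, Cyp2b10 and Ch25h, with r from 0.95 to 0.98 among 10624 genes. Setdb2, a histone methyltransferase gene, was at 2.64 and 16.02 FPKM in untreated and treated controls and at 2.88 and 27.8 FPKM in Ezh2 KO. Ch25h, which encodes cholesterol 25-hydroxylase, was at 0.642 and 7.02 FPKM and at 1.79 and 7.60 FPKM. This likeness rests on the 2 treated groups. With Spearman's rho 2 of the 10 stayed in the top 10, and over the 8 pregnancy groups 0 did.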

How the data were processed

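Poly(A) RNA-seq of 31 libraries in 12 groups was used, and the 9 ChIP-seq samples of the series were not analysed here. The deposited table holds FPKM, which the authors computed as 1 value per gene and group, so the depth per library is unknown from it. Per the submitters' processing notes, Cufflinks and Cuffdiff, TopHat, Bowtie and BWA, CASAVA, HOMER, FastQC and Trim Galore were used with the build mm9, and no versions or roles are given. limma, planned for 1 column per library, could not be fitted to 1 value per group. Instead, differences of log2(FPKM + 1) were called at 1 or more in size over the genes that reached 1 FPKM in any group (Python 3.11.15, pandas 2.3.3, NumPy 2.4.6), with code tested on simulated data. All members were named. From related gene lists, up to 4 genes with the largest difference in the comparison were to be named, of those with at least 1 FPKM in either group. Mpo, Elane, Cxcr2, Ltf, Saa1, Saa2, Hp and others outside that rule were chosen after their values were seen. Members and lists were chosen with earlier results of these data known. Likeness was Pearson's r with the members' mean z-score, over genes that reached 5 FPKM in any group. RefSeq held 20004 of the gene names as symbols and 2338 as synonyms, and 210 had no match. Alternatives were other pseudocounts, scalings, filters and thresholds, and 2 were added after seeing the data: leaving out the treated groups in correlations, and leaving out Lcn2. A gene of the neutrophil surface list is not reported here and is left out of its counts.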

Additional observations from a re-analysis of the deposited data

How the results depend on the processing

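Of 600 alternative values of the members' differences, 547 kept their direction and their side of the threshold, 29 fell below it, 24 passed it and 0 reversed. In each prolactin comparison 48 of 50 were kept, and the exceptions were with a pseudocount of 5 (Cxcl1 and Il1b in control, Il1b and Ifitm6 in Ezh2 KO). Counts of members that moved by over 1.5 times were as follows, and the cause was not tested. At a threshold of 2, the prolactin counts were 4 in control and 5 in Ezh2 KO, and every other count that was above 0 became 0, except that Saa3 in Ezh1 het Ezh2 KO at p18 kept its 1. With a pseudocount of 5, 0 members were called in Ezh2 KO virgins against control with or without prolactin, in Ezh2 KO or Ezh1 KO at p13, higher in Ezh1 KO at p18 and lower from p13 to p18, and 1 was higher from virgin to p13. With a pseudocount of 0.1, 1 member was higher in Ezh2 KO at p13, 4 were higher and 2 lower in Ezh1 KO at p13, 1 and 2 in Ezh1 het Ezh2 KO at p13, 5 and 1 in Ezh1 KO at p18, 1 lower in Ezh1 het Ezh2 KO at p18, 2 lower from virgin to p13 and 2 higher from p13 to p18. Ezh1 KO at p13 had 1 higher under each of the 3 scalings, and Ezh1 KO at p18 had 1 with a common sum and 0 without milk genes. From virgin to p13, 1 was higher under each scaling and without Lcn2. From p13 to p18, 2 were higher and 0 lower with a common upper quartile or without milk genes, and 0 were higher without Lcn2. A common sum moved the median of all genes by -0.14 and -0.16 in the prolactin comparisons in control and Ezh2 KO, and the split of all genes from 679 higher and 245 lower to 574 and 404, and from 392 and 582 to 303 and 852. Without milk genes the splits were 532 and 367, and 286 and 780. In Ezh2 KO at p18 a common sum gave 597 and 165 against 340 and 306. In Ezh1 KO at p18 the sum without milk genes gave 126 and 349 against 173 and 198. In Ezh1 het Ezh2 KO at p18 the split was 175 and 221, 88 and 335 with a common sum, and 88 and 646 without milk genes. From p13 to p18 it was 507 and 2724, 311 and 6071 with a common sum, 904 and 1427 with a common upper quartile, and 731 and 1775 without milk genes. Of 110 alternative counts for the related lists, 22 moved by over 1.5 times, and so did 24 of 48 shares of all genes called with other filters.

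No paired analysis was possible because each column holds 1 value for a whole group. For the same reason leaving out 1 library at a time was not run. Library depth is unknown, and no counting error is given for values under 1 FPKM.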

Other observations

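Hp, Serpina3n and Orm1, acute phase genes that fat also makes, were lower in control p18 than in control p13 glands, and higher in Ezh2 KO than in control at p18. Of the 24 acute phase genes, 7 were lower and 2 higher from control p13 to p18. At p18, 4 were higher and 0 lower in Ezh2 KO. Lbp went the other way in both, at 54.4 and 69.3 FPKM in control p13 and p18 glands and 45.1 FPKM in Ezh2 KO at p18. Hp was at 307 FPKM in control p13 glands and 49.3 FPKM in control p18 glands, and at 347 FPKM in Ezh2 KO at p18. Serpina3n, a protease inhibitor, was at 117 and 16.2 FPKM in the control groups and at 134 FPKM in Ezh2 KO at p18. Orm1, orosomucoid, was at 149, 45.2 and 109 FPKM in the same 3 groups. The 8 adipocyte markers summed to 30728, 5773 and 13165 FPKM there. In Ezh2 KO at p13 their sum was 12101 FPKM, while Hp was at 167, Serpina3n at 70.6 and Orm1 at 68.1 FPKM. The part of adipocytes in these levels was not tested.

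Pglyrp1, a peptidoglycan-binding protein of neutrophil granules, had its own order. It was at 9.54, 12.3, 35.9 and 29.5 FPKM in control, Ezh1 KO, Ezh2 KO and Ezh1 het Ezh2 KO at p13, and at 13.9, 39.4, 80.3 and 64.6 FPKM at p18, against 2.66 to 13.0 FPKM in virgin glands. S100a8 in the p13 groups did not share this order, at 3.63, 3.86, 2.29 and 4.40 FPKM. No spread is known for either gene, and the differences were not tested.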
